A study of Mus musculus with 3 samples.

Results

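The S100 genes of myeloid cells examined here are S100a8, S100a9, S100a4, S100a6, S100a10 and S100a11, 6 of the 27998 genes counted. They were taken by gene symbol and read in every droplet barcode with at least 500 UMIs, 174 to 4548 genes and under 8.3% of UMIs from mitochondrial genes, where a UMI is 1 distinct RNA molecule. The tissue was the meninges of male C57BL/6J mice, 10 to 12 weeks old and perfused through the heart, dissected from the surface of the brain and from the skull. The home cage (HC) group had 2 libraries from unstressed mice and the chronic social defeat (CSD) group had 1, from mice that met a CD-1 aggressor on 14 days and were stress-susceptible by their behaviour. The libraries are called HC1, HC2 and CSD1 here, and sets of values are given in that order. Each library was made from the pooled cells of 4 mice, sorted as live nucleated singlets, and ran in its own lane of a droplet chip. With 1 CSD library, the effect of defeat cannot be told apart from that of the pool or the lane. The rule for removing droplets of more than 1 cell, given below, also differed for CSD1.

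S100 proteins are small calcium-binding proteins that work as dimers. S100A8 and S100A9 pair as calprotectin, an abundant cytosolic protein of neutrophils that binds zinc and manganese away from microbes and, once released, can act as an alarmin on Toll-like receptor 4 and RAGE. S100A10 joins annexin A2 in a complex that sits at the plasma membrane and can take part in plasmin formation, S100A11 binds annexin A1, S100A6 (calcyclin) binds annexins and the calcyclin-binding protein, and S100A4 binds non-muscle myosin in moving cells.

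All 6 genes lie on chromosome 3. In RefSeq's annotation of GRCm38.p6, the assembly also called mm10, S100a4 spans chr3:90603770-90606045, S100a6 chr3:90612894-90614414, S100a8 chr3:90669071-90670034 and S100a9, on the minus strand, chr3:90692630-90695721. S100a11 spans chr3:93520496-93526288 and S100a10 chr3:93555117-93564645. RefSeq also lists a pseudogene, S100a11-ps, at chr12:73961087-73961577, and how reads shared with it were counted is not known here, so the S100a11 counts carry that uncertainty.

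The promoters of S100a8 and S100a9 are shown because the levels of these genes ran together, and those of S100a4, S100a6 and S100a11 for comparison. Each is RefSeq's window in GRCm38.p6 from 250 bases before the start to 50 bases after it, 5′ to 3′ on the gene's strand. The windows are chr3:90668821-90669120 (plus) for S100a8, chr3:90695672-90695971 (minus) for S100a9, chr3:90603520-90603819 (plus) for S100a4, chr3:90612644-90612943 (plus) for S100a6 and chr3:93520246-93520545 (plus) for S100a11. Capitals mark matches, on either strand, to TATAAA (the TATA box), GAGGAA (PU.1-type), TTNNGCAA (C/EBP-type) and TGANTCA (AP-1-type, which reads as itself on the other strand).
S100a8: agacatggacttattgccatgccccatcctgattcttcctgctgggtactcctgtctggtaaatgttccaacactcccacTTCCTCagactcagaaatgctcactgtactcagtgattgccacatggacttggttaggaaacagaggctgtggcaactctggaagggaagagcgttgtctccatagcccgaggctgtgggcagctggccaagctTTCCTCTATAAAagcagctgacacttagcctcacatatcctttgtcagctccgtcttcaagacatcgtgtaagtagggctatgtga
S100a9: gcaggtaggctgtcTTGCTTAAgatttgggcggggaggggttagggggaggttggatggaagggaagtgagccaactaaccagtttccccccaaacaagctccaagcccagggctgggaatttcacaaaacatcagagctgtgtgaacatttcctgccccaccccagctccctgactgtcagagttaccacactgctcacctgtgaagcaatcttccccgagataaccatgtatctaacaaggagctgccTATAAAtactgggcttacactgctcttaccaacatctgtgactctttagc
S100a4: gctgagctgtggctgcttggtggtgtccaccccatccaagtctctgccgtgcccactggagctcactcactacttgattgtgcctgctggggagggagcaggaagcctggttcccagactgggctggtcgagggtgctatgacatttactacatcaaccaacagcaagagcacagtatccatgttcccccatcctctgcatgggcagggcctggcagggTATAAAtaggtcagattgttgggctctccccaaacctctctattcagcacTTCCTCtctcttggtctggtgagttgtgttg
S100a6: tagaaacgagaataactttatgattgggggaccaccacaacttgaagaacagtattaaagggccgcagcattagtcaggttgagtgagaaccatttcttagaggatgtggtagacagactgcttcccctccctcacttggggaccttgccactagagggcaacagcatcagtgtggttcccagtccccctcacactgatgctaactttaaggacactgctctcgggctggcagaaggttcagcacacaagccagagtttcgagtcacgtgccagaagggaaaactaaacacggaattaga
S100a11: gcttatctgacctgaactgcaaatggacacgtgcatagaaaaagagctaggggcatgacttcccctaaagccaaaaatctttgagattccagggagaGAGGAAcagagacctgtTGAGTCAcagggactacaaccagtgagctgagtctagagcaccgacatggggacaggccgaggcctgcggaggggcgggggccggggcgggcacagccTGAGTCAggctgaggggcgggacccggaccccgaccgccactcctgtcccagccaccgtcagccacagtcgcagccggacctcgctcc

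S100a8 held TATAAA from 30 bases before its start and GAGGAA on the other strand from 170 and 36 bases before it, the last directly next to the TATA box. S100a9 held TATAAA at its annotated start and TTNNGCAA, on the other strand, from 236 bases before it. S100a4 held TATAAA from 31 bases before its start and GAGGAA on the other strand after it. S100a11 held GAGGAA from 153 and TGANTCA from 136 and 38 bases before its start, and S100a6 held none of the 4. Among 32851 promoter windows, 13.6% held TATAAA, 28.3% GAGGAA, 10.8% TTNNGCAA and 7.81% TGANTCA. These matches describe the letters of the windows only.

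The libraries held 9891861 (HC1), 8814690 (HC2) and 10206236 (CSD1) UMIs over all droplets, and 2552, 1677 and 2615 cells after doublets were removed. The barcodes within the limits, before doublets were removed, held 9007692, 5245463 and 9580374 UMIs. Droplets of at most 100 UMIs held 7.87%, 24.1% and 5.48% of the UMIs, so HC2 was the poorest in RNA from cells. Scrublet's automatic threshold marked 1.81% and 1.47% of the HC barcodes as doublets, but under 0.5% of the CSD barcodes, so the highest 5.1% of scores was removed there instead. The rule thus differed between the groups, and its effect cannot be told apart from that of defeat. Pairs of libraries shared 3 to 8 barcode sequences among their cells. Cells were clustered without any S100 gene, and clusters were named from canonical genes. Of the marker lists, all 9 mature neutrophil genes were highest in the mature neutrophil-like cells and 7 of 11 monocyte genes in the monocyte-like cells, but only 2 of 7 immature neutrophil genes and 3 of 9 preneutrophil genes were highest in the cells of that name. The preneutrophil-like cluster scored slightly higher for the immature neutrophil than for the preneutrophil list, and its name rests on Fcnb, Ms4a3, Cebpe, Hmgn2 and Top2a among its leading genes. Neutrophil-like cells (immature and mature together) numbered 775, 568 and 1244, and preneutrophil-like cells, kept apart, 60, 31 and 80.

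S100a8 and S100a9 made up 26.0% to 29.6% of all RNA molecules counted in neutrophil-like cells. S100a8 stood at 182877 UMIs per 1000000 UMIs (CPM) in HC1, 146394 in HC2 and 171591 in CSD1. S100a9 stood at 111916, 114018 and 124006 CPM in the same order. Together they took 29.5%, 26.0% and 29.6% of the UMIs there. S100a8 was thus higher in 1 HC library than in the other by more than the CSD library lay from either, while S100a9 differed little between the HC libraries. In preneutrophil-like cells, the dividing precursors, S100a8 was at 139852, 122263 and 129011 CPM and S100a9 at 96564, 103511 and 109465.

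Outside the neutrophil lineage both genes dropped to a common low level. Over 18 other cell types, S100a8 ran from 14266 to 21730 CPM in HC1, from 10330 to 22321 in HC2 and from 13558 to 20042 in CSD1. T-like cells, which should lack the gene, held 15895, 12154 and 15243 CPM. Neutrophil-like cells exceeded them 11.6 ± 0.403-fold for S100a8 and 12.3 ± 0.816-fold for S100a9 (mean of the 3 library ratios ± SD, n = 3). Monocyte-like cells, at 19664, 14952 and 16791 CPM of S100a8, stood 1.19 ± 0.0763-fold above T-like cells, and microglia-like, fibroblast-like and olfactory sensory neuron-like cells lay in the same range. In the median cell the S100a8 share of UMIs was 1.60%, 1.17% and 1.57% in monocyte-like and 1.56%, 1.15% and 1.43% in T-like cells, and single cells reached 15.4%, 12.5% and 6.57% in the first and 3.74%, 15.1% and 5.78% in the second. S100a9 ran from 7589 to 11737, from 8173 to 16633 and from 9309 to 13964 CPM over those 18 types.

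**Figure D1:**
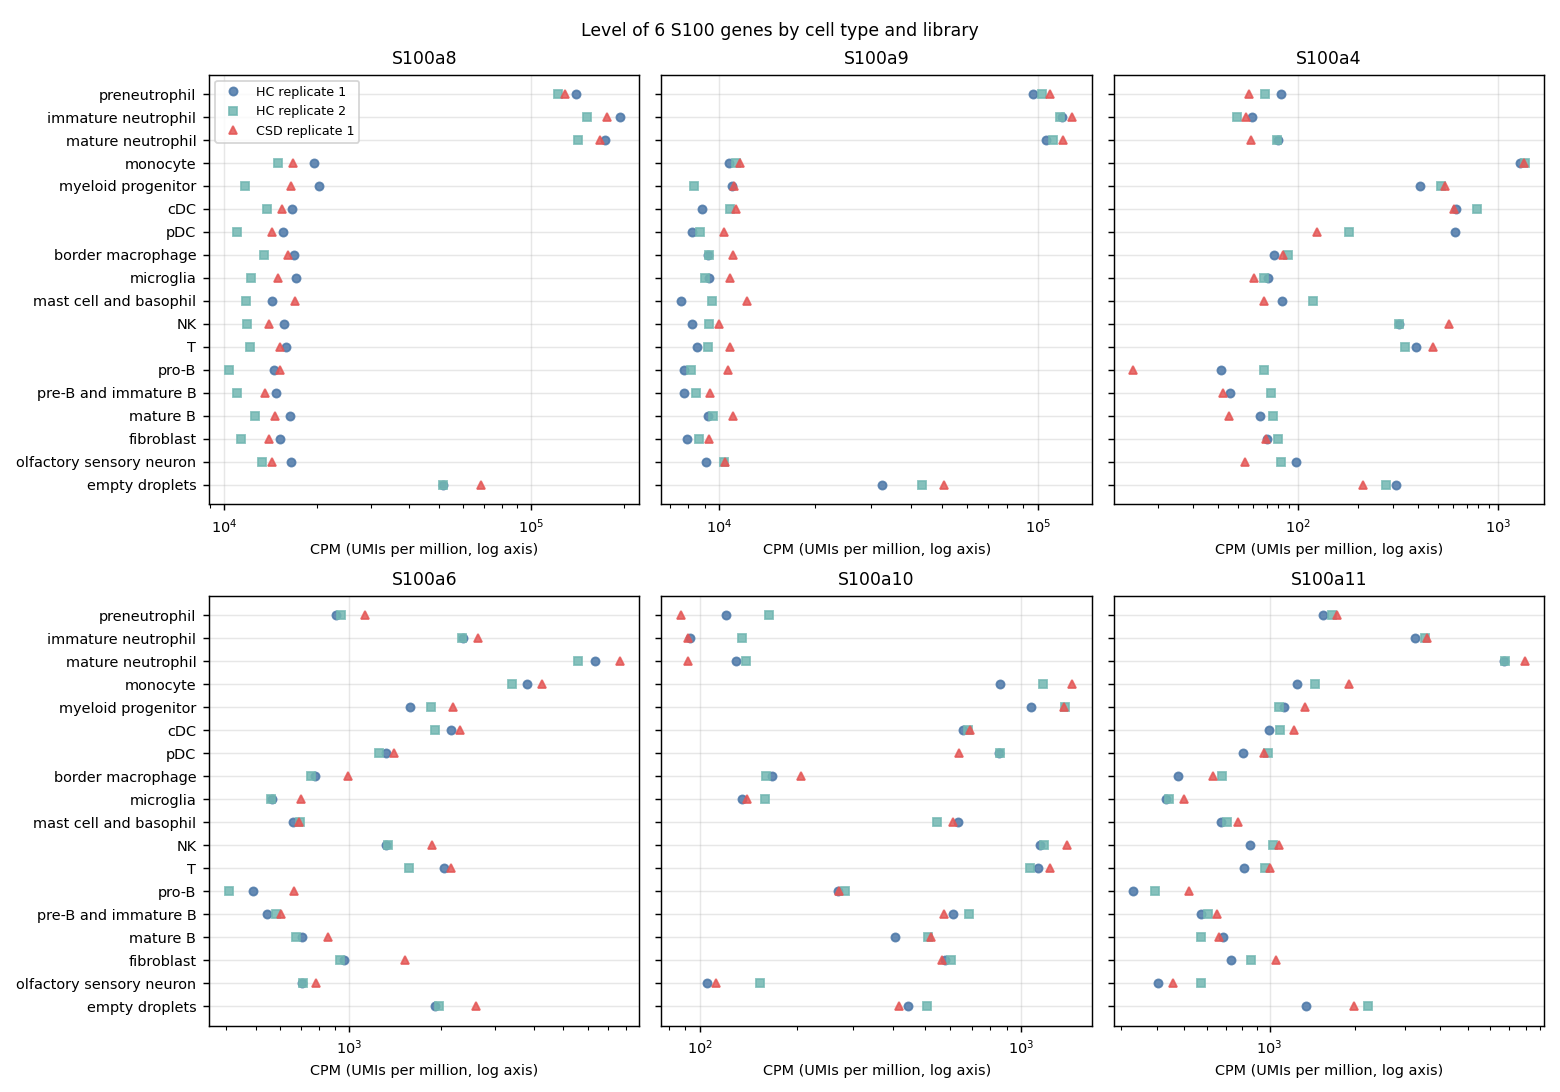
Level of each gene by cell type (rows) in CPM on a log axis, with 1 point per library and empty droplets at the bottom. S100a8 and S100a9 separate the 3 neutrophil lineage types from the rest by about 10-fold. S100a4 peaks in monocyte-like cells at 1290 to 1364 CPM, and S100a6 and S100a11 peak in mature neutrophil-like cells. S100a10 is low in the neutrophil lineage and in olfactory sensory neuron-like, microglia-like and border macrophage-like cells.

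In droplet data, RNA outside cells is counted in droplets that hold other cells, so the common level was set beside what such carry-over would give. Every cell of every type held at least 1 S100a8 UMI, T-like and olfactory sensory neuron-like cells included. After each cell was thinned to 500 UMIs, S100a8 was still seen in 159 of 159, 107 of 107 and 161 of 163 T-like cells, so a share of cells with a UMI told nothing about which cells express it. Empty droplets, the barcodes of at most 100 UMIs, held S100a8 at 51385, 51537 and 68436 CPM. The carried-over part of a type's UMIs was estimated from genes foreign to it, as their share over that in empty droplets, with neutrophil genes outside the S100 family for lymphoid, erythroid and neuronal types and mature B cell genes, which rest on few UMIs, for the others. Over 8 types of the first kind its median was 30.7%, 29.5% and 26.2% of the UMIs. Each type's own estimate came to 97.4% (HC1), 120% (HC2) and 122% (CSD1) of the S100a8 in T-like cells, and to 73.0%, 115% and 97.3% of that in monocyte-like cells. In microglia-like cells it came to 190%, 119% and 388% and in cDC-like cells to 163%, 165% and 330%, more than all of the S100a8 there, so the estimates from mature B cell genes are too high for some types and are not exact for the others. In neutrophil-like cells it came to 8.77%, 11.1% and 12.4%.

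S100a8 UMIs in cells outside the lineage grew with the depth of the cell. Mature B-like cells, with a mean of 1699 UMIs a cell in HC1, held 27.8 S100a8 UMIs each, while myeloid progenitor-like cells, with 12718 UMIs, held 259. Empty droplets held 3.93, 10.0 and 2.92 UMIs on average, and 0.202, 0.517 and 0.2 S100a8 UMIs. The number of S100a8 UMIs in a non-neutrophil cell was therefore far above that of an empty droplet and near a fixed share of the cell's own total. The carried-over estimate counts RNA of foreign genes by whatever route it came, and the source of these molecules was not tested.

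The ratio of S100a8 to S100a9 UMIs was a property of the library more than of the cell type. In neutrophil-like cells it was 1.63 in HC1, 1.28 in HC2 and 1.38 in CSD1. T-like cells gave 1.86, 1.32 and 1.41, and empty droplets 1.58, 1.19 and 1.34. HC1 was the highest of the 3 libraries in every type, and there the types outside the lineage lay above both neutrophils and empty droplets. Preneutrophil-like cells had the lowest ratio in each library, at 1.45, 1.18 and 1.18.

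**Figure D2:**
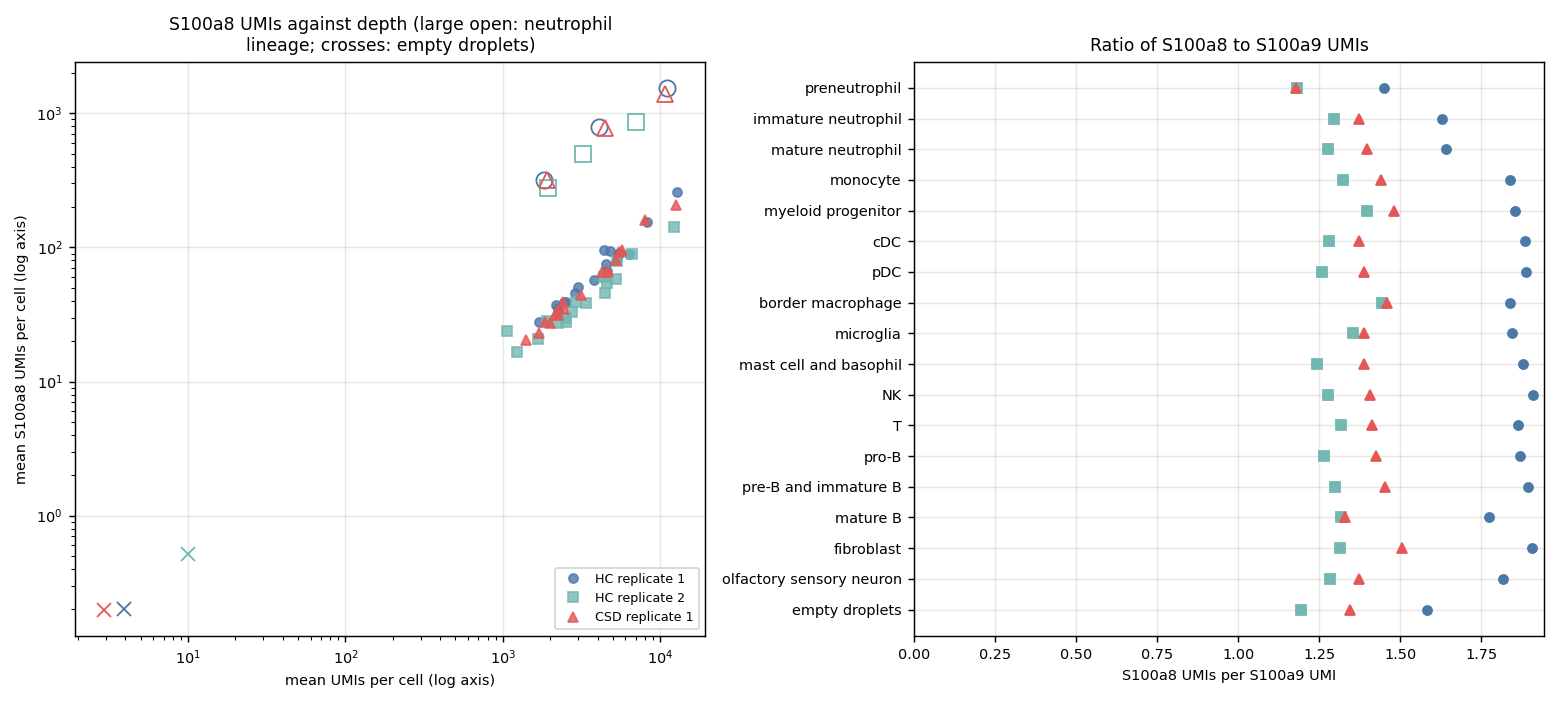
Left, mean S100a8 UMIs per cell against mean UMIs per cell for each type and library on log axes, with large open symbols for the neutrophil lineage and crosses for empty droplets; right, S100a8 UMIs per S100a9 UMI by type. The filled points form 1 rising line across the depths below the open symbols, and HC1 lies right of the other libraries in every row of the right panel.

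Within the neutrophil lineage the members took 2 different courses. Clusters were ordered by their leading genes, from preneutrophil-like cells (Fcnb, Top2a), through immature neutrophil-like cells (Ltf, Camp) and mature neutrophil-like cells led by Mmp8 and Mmp9, to those led by Retnlg and Cxcr2 and those led by Il1b and Csf3r. S100a8 averaged 130376 ± 8874 CPM in the first, 174183 ± 21162 in the second, 180629 ± 21150 in the third, 163049 ± 15861 in the fourth and 89890 ± 13568 in the Il1b-led cluster (SD, n = 3 libraries). Within each library the order was the same, with the Mmp8-led cluster highest, then the immature and then the Retnlg-led cluster, at 196648, 194247 and 177153 CPM in HC1. The fall to the Il1b-led cluster was seen in each library, from 196648 to 99421 CPM in HC1, 156654 to 74356 in HC2 and 188584 to 95894 in CSD1, a ratio of 2.02 ± 0.0779. S100a9 followed the same course, from 125486 ± 6025 CPM in the Mmp8-led to 60305 ± 7850 in the Il1b-led cluster.

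S100a6 and S100a11 were instead higher in later clusters, up to the Retnlg-led one. S100a6 averaged 994 ± 116, 2446 ± 171, 5253 ± 881, 7894 ± 923 and 5562 ± 622 CPM over the 5 clusters in that order. S100a11 averaged 1642 ± 99.4, 3455 ± 172, 5614 ± 581, 8364 ± 553 and 7668 ± 949 CPM. From preneutrophil-like cells to the Retnlg-led cluster, S100a6 was 8.36-fold, 7.55-fold and 7.92-fold higher in the 3 libraries and S100a11 5.12-fold, 4.99-fold and 5.17-fold. In the Il1b-led cluster both genes were lower than in the Retnlg-led one in all 3 libraries. The Retnlg-led cluster exceeded it 1.33-fold, 1.46-fold and 1.46-fold for S100a6, and 1.03-fold, 1.225-fold and 1.04-fold for S100a11. These cells were the shallowest of the lineage, with a median of 925 UMIs against 10409 in preneutrophil-like cells, so that a CPM compares shares of a cell's RNA and not molecules per cell. Mature neutrophil-like cells held a mean of 316, 276 and 317 S100a8 UMIs and preneutrophil-like cells 1547, 862 and 1384. The values are descriptions of clusters and carry no test.

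**Figure D3:**
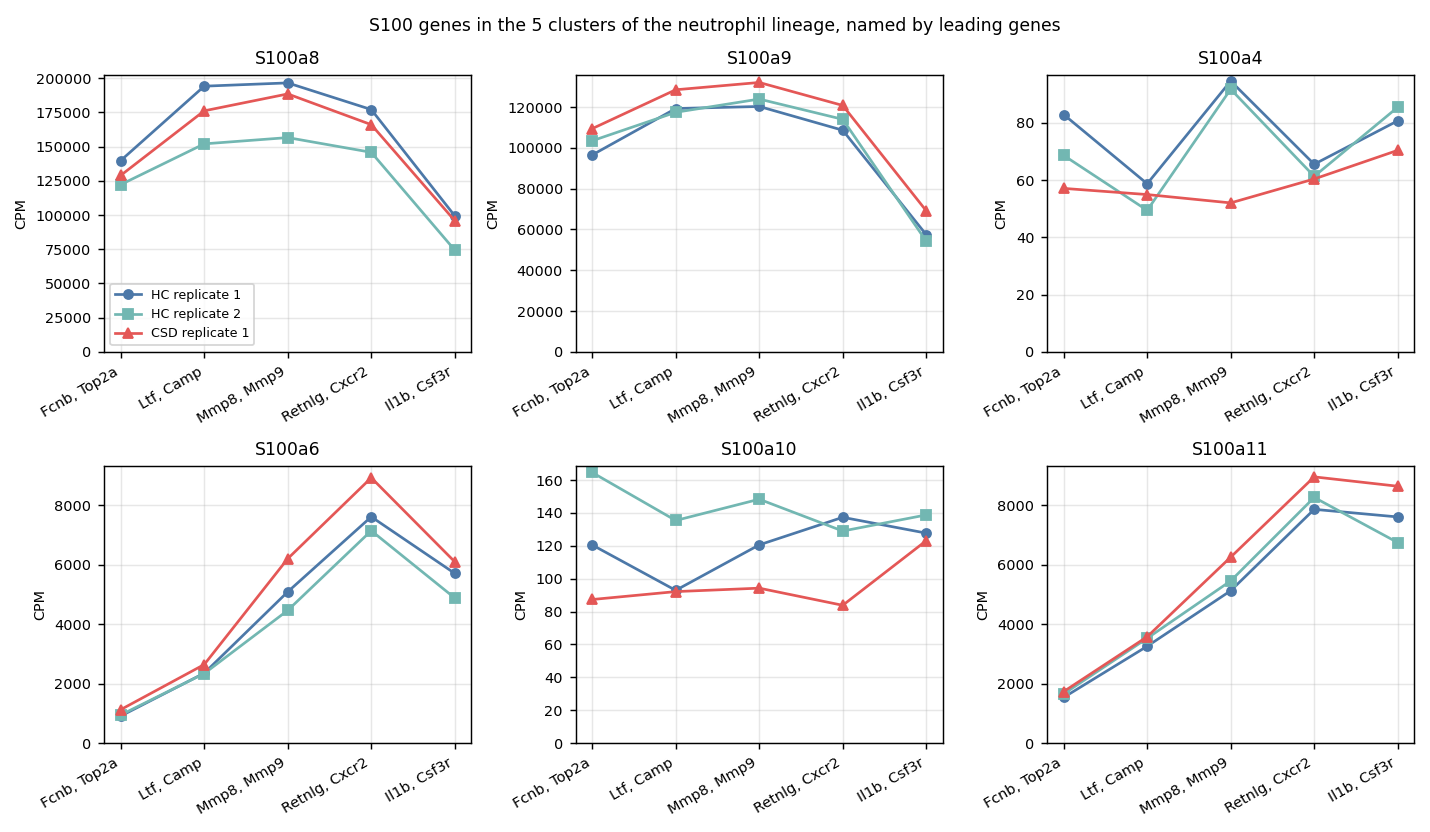
Level of each gene in CPM (linear axes from 0) over the 5 clusters of the neutrophil lineage, named by leading genes and ordered from dividing precursors on the left, with 1 line per library. S100a8 and S100a9 fall by about 2-fold in the Il1b-led cluster in all 3 libraries, S100a6 and S100a11 climb to the Retnlg-led cluster, and S100a4 and S100a10 stay under 170 CPM throughout.

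Single cells varied widely in calprotectin RNA. In mature neutrophil-like cells, the S100a8 share of a cell's UMIs had a median of 16.6%, 13.5% and 16% in the 3 libraries, with a 10th percentile of 6.83%, 5.37% and 8.11% and a 90th of 22.0%, 18.6% and 21.1%. In immature neutrophil-like cells the median was 19.6%, 15.01% and 17.7% and the 10th percentile 15.8%, 9.66% and 14.3%. The low end was thus lower among mature than immature cells in each library, and the lowest mature cells held 1.498%, 0.732% and 1.18%.

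S100a4 was highest in the monocyte-like cells. It stood at 1290, 1364 and 1345 CPM there, with the lowest and highest library within 1.06-fold of each other. Conventional dendritic (cDC)-like cells followed at 615, 787 and 602 CPM and myeloid progenitor-like cells at 406, 519 and 546, then NK-like cells at 319, 321 and 570 and T-like cells at 390, 342 and 472. Monocyte-like cells did not overlap any other type. S100a4 was, however, also among the leading genes of a T-like cluster of 56 cells led by Cd163l1, which is pooled into the T-like values here. The range of cDC-like cells overlapped those of endothelial-like cells (799, 93.2 and 58.7 CPM) and pDC-like cells (609, 181 and 125 CPM), whose HC1 values came mostly from 1 cell each, and the ranges of NK-like, T-like and myeloid progenitor-like cells overlapped. Neutrophil-like cells held 70.3, 66.6 and 56.7 CPM, at or under the carried-over estimate, which came to 137%, 131% and 116% of that level. Thinned to 500 UMIs, 53.3%, 57.1% and 48.6% of monocyte-like cells had an S100a4 UMI (exact Clopper-Pearson 95% intervals 42.6% to 63.7%, 44.7% to 68.9% and 39.0% to 58.3%, which cover counting error only). The share was 92.4%, 98.6% and 100% before thinning. In mature B-like cells, which should lack it, the thinned share was 3.94%, 1.56% and 2.70%, with median depths of 1583, 1574 and 1328 UMIs against 4622, 5270 and 5075 in monocyte-like cells.

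S100a6 was shared by neutrophils and monocytes. After mature neutrophil-like cells, at 6320, 5588 and 7642 CPM, monocyte-like cells came next among types other than neutrophils, at 3809, 3404 and 4267 CPM. cDC-like (2161, 1911 and 2300 CPM) and T-like cells (2040, 1572 and 2158 CPM) overlapped each other and myeloid progenitor-like cells. S100a11 was more restricted to neutrophils. It stood at 6721, 6739 and 7938 CPM in mature neutrophil-like cells, 4.73 ± 0.606-fold above monocyte-like cells, at 1254, 1447 and 1910 CPM.

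S100a10 was low in the neutrophil lineage and highest in several other types. Myeloid progenitor-like cells (1069, 1367 and 1355 CPM), NK-like cells (1140, 1179 and 1382), monocyte-like cells (860, 1166 and 1440) and T-like cells (1127, 1063 and 1224) led the order and overlapped one another. Neutrophil-like cells were among the lowest, at 113, 138 and 91.9 CPM, where the carried-over estimate came to 122%, 116% and 140% of the level. The neutrophil values of S100a4 and S100a10 were therefore not above the carried-over estimate.

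Genes with the most similar distribution were sought over the mean levels of 21 cell types among 3763 genes outside the S100 family with at least 100 CPM in some type. These correlations of log2(CPM + 10) describe types that share libraries and may share carried-over RNA. S100a8 went with Wfdc21 (Pearson r 0.996), Lcn2 (0.969), which codes for the iron-siderophore binding granule protein lipocalin 2, and Cd177 (0.966), a neutrophil surface protein, and S100a9 with the same genes (0.995, 0.973 and 0.967). S100a11 went with Slpi (0.910), a leukocyte protease inhibitor, Mcemp1 (0.897) and Pygl (0.897), the glycogen phosphorylase. S100a4 went with Ahnak (0.858), Ccr2 (0.840), the receptor that inflammatory monocytes use to leave the marrow, and Glud1 (0.806). S100a6 went with Mrpl33 (0.838), Anxa2 (0.833) and Myl6 (0.804), and S100a10 with Tmsb10 (0.859), Anxa6 (0.841) and Eif3m (0.839). Among the members, r was 0.999 between S100a8 and S100a9 and 0.859 between S100a6 and S100a11. It was 0.820 between S100a8 and S100a11 and 0.809 between S100a9 and S100a11. S100a4 and S100a10 gave 0.736 and S100a8 and S100a10 gave -0.57.

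The comparison of CSD with HC asked whether defeat changed these genes within a cell type. UMIs were summed per type and library and fitted with edgeR's quasi-likelihood test, with the spread taken from the 2 HC libraries and the lone CSD library assumed to vary like them. The p-values measure only the spread between these libraries. In neutrophil-like cells, 13 of 1177 genes, 1.1%, passed a Benjamini-Hochberg adjusted p of 0.05. None of the 5 members tested did, by edgeR or by DESeq2, and none had an unadjusted p below 0.05. Of all genes tested there, DESeq2 called 12, and 158 had an unadjusted p below 0.05 by edgeR. S100a4 had a UMI in too few of these cells (15% was required) to be tested.

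S100a8 in neutrophil-like cells was at 187104 and 138407 TMM-normalized CPM in the HC libraries and at 177391 in CSD, between them. Its log2 fold change was 0.12 ± 0.18 (SE, edgeR adjusted p = 0.760). S100a9 was at 114504 and 107798 against 128198, above both, with a log2 fold change of 0.21 ± 0.11 (edgeR adjusted p = 0.424). S100a6 was at 4684 and 4013 against 5393 (0.31 ± 0.15, edgeR adjusted p = 0.403), and S100a11 at 5321 and 5115 against 6020 (0.21 ± 0.13, edgeR adjusted p = 0.475). S100a10 was at 116 and 130 against 95.01, below both, with a log2 fold change of -0.37 ± 0.18 (edgeR adjusted p = 0.414).

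The CSD library thus lay above both HC libraries for 3 of 5 members, where 40.3% of all genes tested did, and below both for 1, where 36.5% did. The median log2 fold change of the 5 was 0.21 and that of all genes tested -0.0035. With 1 CSD library and these standard errors, changes of this size did not pass, and their absence is not shown either. The smallest change that could be called was not estimated for these genes. Without HC2 the S100a8 fold change turned to -0.08, and without HC1 it was 0.36, so its direction rested on which HC library was used.

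The states of the lineage were also fitted apart. In mature neutrophil-like cells S100a6 was at 6455 and 5379 against 7774 TMM-normalized CPM (log2 fold change 0.39 ± 0.16, unadjusted p = 0.0499, edgeR adjusted p = 0.309) and S100a10 at 132 and 134 against 93.2 (-0.51 ± 0.19, unadjusted p = 0.0374, edgeR adjusted p = 0.300). None of 5 members passed there, where 1.71% of genes did and 161 of 996 had an unadjusted p below 0.05. None of 6 passed in immature neutrophil-like cells, where 1.99% of genes did, or in preneutrophil-like cells, where 0.766% did, and in both no member had an unadjusted p below 0.05. DESeq2 called no member in the 3 states. Of all genes it called 13 of 996 in mature, 1 of 1710 in immature and 1 of 3917 in preneutrophil-like cells, so its lack of calls in the last 2 says little.

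In monocyte-like cells 40 of 3164 genes, 1.26%, passed the threshold, 280 had an unadjusted p below 0.05 and DESeq2 called 3. None of the 6 members passed by edgeR or DESeq2, while 2 had an unadjusted p below 0.05. These were S100a10, at 889 and 1136 against 1430 TMM-normalized CPM (log2 fold change 0.50 ± 0.20, unadjusted p = 0.0122, edgeR adjusted p = 0.344), and S100a11, at 1295 and 1410 against 1897 (0.49 ± 0.20, unadjusted p = 0.0128, edgeR adjusted p = 0.345). S100a4, whose level peaked in these cells, was at 1333 and 1329 against 1335, a log2 fold change of 0.0048 ± 0.20. CSD lay above both HC libraries for 5 of 6 members, where 32.9% of all genes tested did. S100a8 was between the HC libraries, at 20321 and 14567 against 16678.

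**Figure D4:**
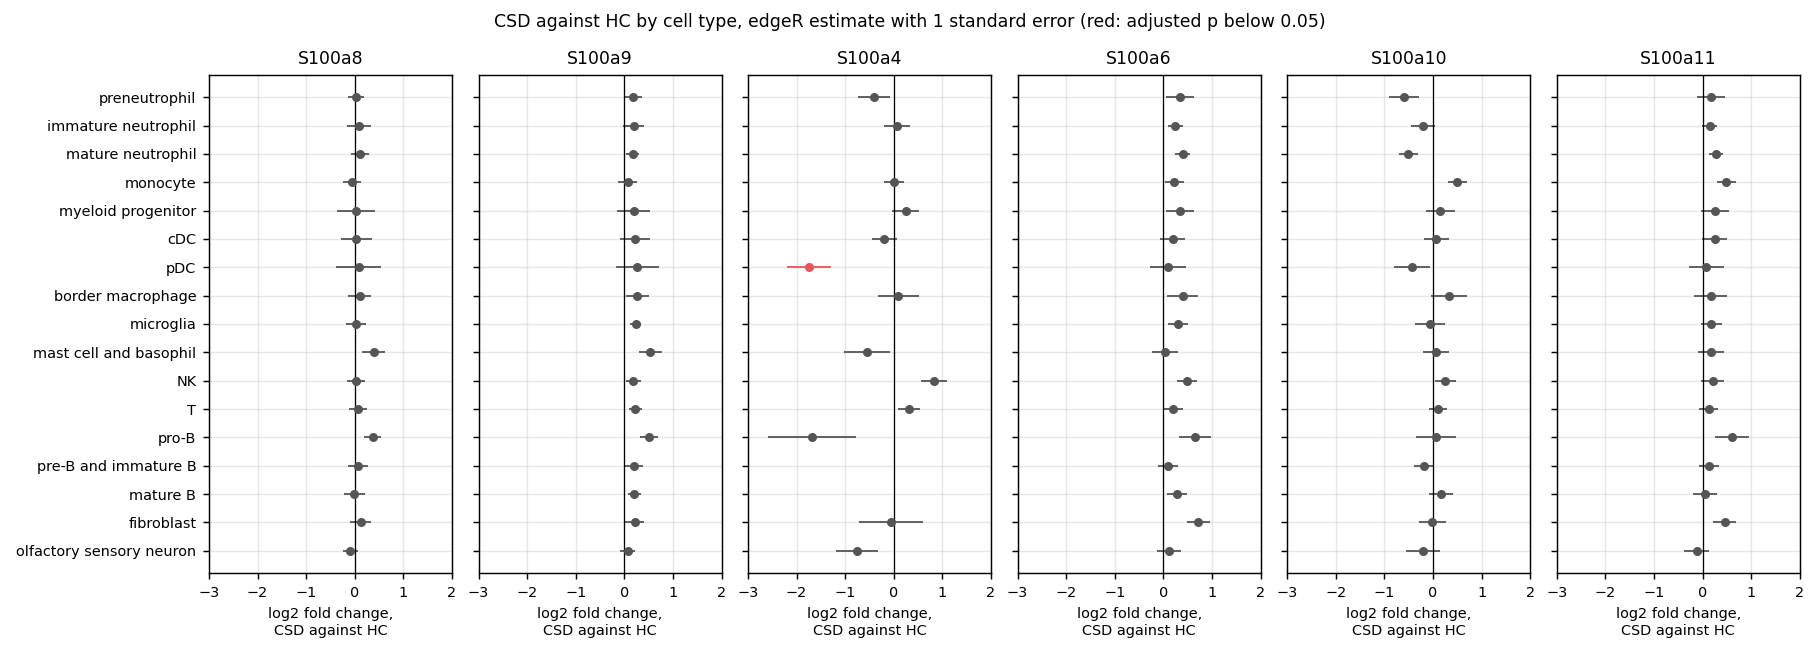
Log2 fold change of CSD against HC (x axis, all panels on the same scale) with 1 standard error for each gene in each cell type (rows), from edgeR, where a missing point was not tested. S100a9, S100a6 and S100a11 lie mostly right of 0 with small values, S100a10 lies left of 0 in the neutrophil lineage and right of 0 in monocyte-like cells, and the red point of S100a4 in pDC-like cells at -1.75 is the 1 value past the threshold.

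Whether the effect differed between neutrophil-like and monocyte-like cells was tested as an interaction with library as a block, in which 2.86% of 3218 genes passed. S100a10 passed, since it was lower in CSD in neutrophil-like cells and higher in monocyte-like cells, a difference of -0.82 ± 0.15 on the log2 scale (edgeR adjusted p = 1.67e-05). S100a8 passed with a difference of 0.24 ± 0.064 (edgeR adjusted p = 0.00926). S100a9 differed by 0.20 ± 0.066 (edgeR adjusted p = 0.0804), and S100a6 and S100a11 by 0.14 ± 0.088 and -0.23 ± 0.096 (edgeR adjusted p = 0.482 and 0.226). S100a4 entered this test only through monocyte-like cells, where it is high, so nothing is read from its value. When cells were thinned to 500 UMIs, which leaves fewer counts, the differences were -1.04 for S100a10 and 0.32 for S100a8, no smaller, but neither passed (edgeR adjusted p = 0.614 and 0.558), and S100a8 was not called by DESeq2 (adjusted p = 0.161), which gave S100a10 a difference of -0.77 and no adjusted p. The S100a10 of neutrophil-like cells and much of the S100a8 of monocyte-like cells were within the carried-over estimate. The part of carry-over in these differences was not tested. In empty droplets S100a10 was at 443, 508 and 415 CPM, lowest in CSD as in neutrophil-like cells. The sums of monocyte-like cells held S100a8 at 19664, 14952 and 16791 CPM. Their median cell held 1.60%, 1.17% and 1.57%, and single cells reached 15.4%, 12.5% and 6.57%. The S100a8 difference without such cells was not tested. Against mature B-like cells none of the 5 members tested passed by edgeR, where 1.64% of 1466 genes did, nor by DESeq2, which gave S100a10 no adjusted p. S100a8 and S100a10 had unadjusted p-values below 0.05 by edgeR, where 186 of the 1466 genes did.

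Over 17 types that share no cells and the pooled neutrophil-like cells, 103 fits of a member could be made, and 1 passed the threshold by edgeR and none by DESeq2, while 11, or 10.7%, had an unadjusted p below 0.05. Over all genes in these fits 6.09% did, with 3.27% to 16.2% in a type. DESeq2 called few genes of any kind, from 0 of 1648 in NK-like to 13 of 996 in mature neutrophil-like cells. Of all genes, none passed in NK-like, mature B-like and microglia-like cells, 0.0543% in myeloid progenitor-like, 0.064% in T-like, 0.261% in border macrophage-like, 0.331% in pro-B-like, 0.34% in fibroblast-like, 0.526% in olfactory sensory neuron-like, 0.58% in cDC-like, 0.785% in mast cell and basophil-like and 1.16% in pre-B and immature B-like cells, with the other types as given beside their results. S100a9 was above both HC libraries in CSD in 15 of the 17, S100a6 in 16, S100a11 in 13, S100a10 in 8, S100a4 in 4 of 13 and S100a8 in 2, where 29.8% to 39.6% of all genes tested in a type were. That share was 29.8% in myeloid progenitor-like, 30.2% in preneutrophil-like, 30.4% in mast cell and basophil-like, 31.2% in pDC-like, 31.4% in border macrophage-like, 32.1% in T-like, 32.3% in olfactory sensory neuron-like, 32.5% in mature B-like, 32.8% in NK-like, 33% in microglia-like, 33.6% in pre-B and immature B-like, 33.9% in immature neutrophil-like, 34.8% in cDC-like, 35.1% in pro-B-like, 38.5% in fibroblast-like and 39.6% in mature neutrophil-like cells. The types come from the same libraries and may share carried-over RNA, so these counts are not independent. The median log2 fold change over the types was 0.21 for S100a9, 0.28 for S100a6, 0.18 for S100a11 and 0.058 for S100a8. In empty droplets S100a9 stood highest in CSD, at 50947 CPM against 32494 and 43195. So did S100a8, at 68436 against 51385 and 51537, and S100a6, at 2603 against 1911 and 1975. S100a11, at 1990, lay between 1349 and 2218. S100a10, at 415 against 443 and 508, and S100a4, at 213 against 308 and 276, were lowest in CSD.

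The 1 call was S100a4 in plasmacytoid dendritic (pDC)-like cells, where 0.211% of 3314 genes passed. It stood at 637 and 174 TMM-normalized CPM in the HC libraries and 124 in CSD, a log2 fold change of -1.75 ± 0.44 (edgeR adjusted p = 0.0405). The HC libraries themselves differed more than HC2 did from CSD. In HC1 a single cell of 22752 UMIs held 73 of the 94 S100a4 UMIs of 29 cells, and the next cell held 5. Without the cell with the most S100a4 UMIs in each library, the levels were 160, 127 and 100 CPM, and the log2 fold change was -0.57 (edgeR adjusted p = 1.00). Without HC1 it was -0.48. In endothelial-like cells of the same library 1 cell likewise held 63 of 67 S100a4 UMIs.

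Other differences with an unadjusted p below 0.05 did not pass. Among them were S100a6 in NK-like cells (log2 fold change 0.48 ± 0.20), S100a9 in mast cell and basophil-like cells (0.53 ± 0.24) and S100a8 in pro-B-like cells (0.37 ± 0.17). S100a4 in NK-like cells was at 326 and 315 TMM-normalized CPM in the HC libraries, close to each other, and at 569 in CSD (log2 fold change 0.83 ± 0.26, unadjusted p = 0.0093, edgeR adjusted p = 0.851). Of 1648 genes tested in these cells none passed, 73 had an unadjusted p below 0.05 and DESeq2 called none. In the fibroblast-like cells S100a6 was at 974 and 910 against 1555 (0.72 ± 0.23, unadjusted p = 0.00456, edgeR adjusted p = 0.321), with 23 cells in CSD. The carried-over estimate came to 63.9%, 67.2% and 76.4% of the S100a6 there. In pro-B-like cells S100a9 was at 7800 and 7806 against 11100 (0.51 ± 0.19, unadjusted p = 0.00684, edgeR adjusted p = 0.626), a type in which the gene was at the common low level.

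3 gene groups around the family were counted in the same fits. Of 10 other S100 genes, 2 were tested in neutrophil-like and 3 in monocyte-like cells, and none passed by edgeR or DESeq2, while S100a5 in monocyte-like cells had an unadjusted p below 0.05 (log2 fold change -0.58 ± 0.26, edgeR adjusted p = 0.470). S100a5 was a gene of olfactory sensory neuron-like cells, at 9084, 13360 and 8960 CPM, and was spread over neutrophil-like cells at 134, 240 and 123 CPM, following the empty droplets at 739, 1175 and 477. S100a13 was at 191, 193 and 225 CPM in neutrophil-like cells. Of 17 receptors and signalling genes for released S100A8 and S100A9, 4 were tested in neutrophil-like and 7 in monocyte-like cells, and none passed or had an unadjusted p below 0.05, nor did DESeq2 call any. Emb, an immunoglobulin-family receptor, was at 222, 257 and 267 CPM and Bsg (basigin) at 96.1, 136 and 97.4 CPM in neutrophil-like cells. Of 11 partners and genes of the annexin A2 and plasmin system, 4 and 8 were tested and none passed in these types by edgeR or DESeq2, while Anxa1 and Plaur in neutrophil-like cells had an unadjusted p below 0.05. Plaur, the urokinase receptor, had a log2 fold change of -0.84 ± 0.18 (edgeR adjusted p = 0.157). In the immature neutrophil-like cells fitted apart it did pass, at 92.0 and 108 against 45.1 TMM-normalized CPM (-1.14 ± 0.26, edgeR adjusted p = 0.0246), though not by DESeq2. Anxa1, whose protein binds S100A11, was at 1803 and 2149 against 2636 TMM-normalized CPM in neutrophil-like cells (log2 fold change 0.42 ± 0.16, edgeR adjusted p = 0.338), and Anxa2 at 609 and 666 against 796 (0.32 ± 0.15, edgeR adjusted p = 0.396). The median log2 fold changes of the 3 groups in neutrophil-like cells were -0.10, 0.038 and 0.12, against -0.0035 for all genes tested, and in monocyte-like cells 0.065, 0.11 and -0.013 against -0.016.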

How the data were processed

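Meninges of mice were profiled by droplet single-cell RNA-seq (10x 3′ kit) in 2 HC libraries and 1 CSD library. The authors deposited 1 matrix of raw UMI counts per gene and barcode for all droplets, made with Cell Ranger version 2 and the mm10 build per the submitters' processing notes. No normalization had been applied, and the barcode suffix gives the library. Alignment settings are not known here. Barcodes with at least 500 UMIs, 174 to 4548 genes and under 8.3% mitochondrial UMIs were kept, which gave 2599, 1702 and 2756 barcodes, and doublets were removed with Scrublet in scanpy 1.11.5 (47, 25 and 141 barcodes).

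Cells were clustered without S100 genes on 2000 variable genes and 50 components, with mutual nearest neighbour correction, 15 neighbours and Leiden resolution 1, and clusters were named "-like" from marker lists. Counts were summed per type and library in types with at least 20 cells in every library. Genes with a UMI in more than 15% of a type's cells were tested with edgeR 4.0.16 (TMM, quasi-likelihood test, two-sided, Benjamini-Hochberg threshold 0.05), in which 1 residual degree of freedom was moderated across genes, and with DESeq2 1.42.0 as an alternative. The scripts were tested on simulated data. CPM is UMIs per 1000000 UMIs of a type and library, and cells were not treated as replicates. Depth was 8814690 to 10206236 UMIs a library over all droplets and 5245463 to 9580374 in the barcodes within the limits, and intervals cover counting error only. The genes named were the 6 members, the genes of 3 lists (those past the threshold and the 2 with most UMIs in each, with others below an unadjusted p of 0.05 added after their values were seen) and the 3 genes most like each member. The members, lists and tests were chosen with earlier results of these data known. Alternatives covered normalization, filters, doublets, clustering, thinning, subtraction of carried-over RNA and leaving out a library.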

Additional observations from a re-analysis of the deposited data

Results flagged for a closer look

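The difference between neutrophil-like and monocyte-like cells in the effect of CSD passed the test of the difference itself for 2 members. For S100a8 it was 0.24435 on the log2 scale (edgeR adjusted p = 0.00926), with a log2 fold change of 0.12 in neutrophil-like and -0.06 in monocyte-like cells, neither past the threshold. For S100a10 it was -0.82263 (edgeR adjusted p = 1.67e-05), with -0.37 in neutrophil-like and 0.50 in monocyte-like cells, again neither past the threshold. The carried-over estimate came to 73.0%, 115% and 97.3% of S100a8 in monocyte-like cells and to 122%, 116% and 140% of S100a10 in neutrophil-like cells. The part of carry-over in either difference was not tested. In empty droplets S100a10 was at 443, 508 and 415 CPM, lowest in CSD. The median monocyte-like cell held 1.60%, 1.17% and 1.57% S100a8, and single cells reached 15.4%, 12.5% and 6.57%. The difference without such cells was not tested. After thinning to 500 UMIs the differences were 0.32 and -1.04 and neither passed (edgeR adjusted p = 0.558 and 0.614). DESeq2 gave 0.2925 for S100a8, which did not pass (adjusted p = 0.161), and -0.77 with no adjusted p for S100a10.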

How the results depend on the processing

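One CSD library limits every comparison, and the effect of its pool, lane or doublet rule cannot be told apart from that of defeat. No paired analysis was possible because the HC and CSD libraries were pools of different mice, and their replicate numbers only count libraries within a group. Of the alternatives, 213 values kept their direction and side of the threshold, moved within the spread or, for counts of genes called, stayed close to the main count. Another 21 levels moved beyond the spread and 14 fold changes or differences reversed. A further 20 values were weaker and 6 stronger, in a count or by crossing the threshold. The cause of these changes was not tested. The 13 genes called in neutrophil-like cells became 243 with no filter on the share of cells, 22 with doublets kept, 0 with at least 1000 UMIs, 1 with a mitochondrial share under 5%, 0 with no neighbour correction, 21 after thinning and 25 after subtraction of carried-over RNA. The 40 in monocyte-like cells became 3 with DESeq2, 23 without TMM, 3 with at least 1000 UMIs, 26 with a mitochondrial share under 5%, 1 at Leiden resolution 2, 3 after thinning and 0 after subtraction. These counts had no value without an HC library, which leaves no residual degrees of freedom.

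Log2 fold changes moved as follows. In neutrophil-like cells S100a8 ran from -0.07691 to 0.36 with 1 HC library left out. S100a6 was 0.4391 and passed with no filter on the share of cells. Far more genes passed in that setting than in the main fit, of a number tested that is not given here, so nothing is read from that call. In monocyte-like cells S100a8 was 0.1367 with at least 1000 UMIs, 0.1377 with a mitochondrial share under 5%, 0.05039 with no neighbour correction and -0.29 to 0.1952 with 1 HC library left out. After subtraction, any very large fold change in these cells was left out, since a library then held almost none of the gene. Such values are also missing from the count of values that kept their direction. There S100a9 was -0.6652 with doublets kept, and S100a4 was -0.008699, -0.1057, -0.1722 and -0.08233 with at least 1000 UMIs, the mitochondrial limit, thinning and subtraction. S100a4 in pDC-like cells was -1.711 with DESeq2, -1.697 without TMM, -0.1142 with doublets kept, -0.7093 with at least 1000 UMIs, -0.445 with the mitochondrial limit, -0.8422 with no neighbour correction, 0.1979 after thinning, -2.33 to -0.48 with 1 HC library left out and -0.5733 without the top cells, an alternative chosen after seeing the data. Against monocyte-like cells the neutrophil effect differed for S100a8 by 0.2925 (DESeq2) and 0.3226 (thinned), for S100a4, which passed the filter only through monocyte-like cells, by -0.16 as fitted and 0.06212 (thinned) and for S100a10 by -1.036 (thinned). Against mature B-like cells it was -0.2127 for S100a8 and -0.04448 for S100a11 with doublets kept.

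Mean levels in neutrophil-like cells after subtraction were 210378 CPM for S100a8, 146074 for S100a9, 0 for S100a4 and S100a10, 5650.24 for S100a6 and 6915.68 for S100a11. There S100a6 was 3843.44 and S100a11 4569.35 CPM with at least 1000 UMIs, and 3920.54 and 4704.77 with no neighbour correction. In monocyte-like cells with doublets kept, S100a8 was 26723, S100a9 17895.4 and S100a4 1172.62 CPM, and after subtraction 2629.63, 744.872 and 1732.92, with S100a6 at 4420.67. S100a9 there was 10035.4 CPM with at least 1000 UMIs and 10356 with no neighbour correction, and S100a4 was 1284.13 with no neighbour correction and 1194.52 at Leiden resolution 2.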
